A study of Homo sapiens with 12 samples.

Results

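RPL36A-HNRNPH2 is an annotated readthrough gene that joins RPL36A to its neighbour HNRNPH2, and it was followed here together with both parent genes and the remaining genes of the hnRNP H/F family, HNRNPH1, HNRNPH3 and HNRNPF. The 6 rows were taken by gene identifier from a table of 20345 genes, and all 6 had a mean of at least 1 FPKM (fragments scaled to transcript length and to the mapped total of the library), as did 11225 rows in all. The set was chosen by the measured FPKM of RPL36A-HNRNPH2 in these libraries, above all its level in treated knockout-labelled cells, so the row's differences are described below and carry no test.

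RNA was sequenced from 12 libraries of HGC-27, a human gastric cancer cell line, in 4 groups of 3. These were WT untreated, WT with GLUP, TEAD4KO untreated and TEAD4KO with GLUP. Here WT is wild type by the submitters' description and GLUP is the peptide under study. TEAD4KO stands for knockout of TEAD4, a TEAD family transcription factor that binds the coactivators YAP and TAZ. The labels give neither a dose nor a time of treatment, and they do not say whether the knockout is a clone or whether replicates were separate cultures, so p-values measure only the spread between these libraries. The replicate numbers are 1, 2 and 3 in untreated and 14, 15 and 16 in treated groups.

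TEAD4 itself was listed at 22.9 to 25.8 FPKM in the 6 WT libraries and at 26.0 to 30.1 FPKM in the 6 libraries labelled TEAD4KO. The transcript was thus no lower under the knockout label. Its log2 difference, TEAD4KO against WT, was 0.17 ± 0.06 (SE) untreated (limma, adjusted p = 0.135). With GLUP it was 0.23 ± 0.06 (adjusted p = 0.0479), a call lost in 14 of 22 alternatives. The values do not show which part of the gene they come from, and every genotype direction below rests on the label. The FPKM values of a library summed to between 375361 and 423757, and sequencing depth is unknown. Of the gastric epithelial markers, TFF1, TFF2 and GKN1 were at 0 in all 12 libraries and MUC5AC reached 0.0275 FPKM, CLDN18 0.256 FPKM, EPCAM 0.169 FPKM, KRT18 0.29 FPKM and KRT19 0.0459 FPKM, while KRT8 (3.78 to 9.13 FPKM) and CDH1 (2.04 to 3.68 FPKM) were low. VIM, a mesenchymal intermediate filament, was at 1238 to 1704 FPKM, FN1 at 3.85 to 9.15 FPKM and CDH2 at no more than 0.149 FPKM. Of markers of other cells, COL1A1 was at 155 to 304 FPKM, PTPRC at no more than 0.276 FPKM and HBB at 0, and PECAM1 was not analysed here.

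Readthrough transcription occurs when RNA polymerase passes the end of a gene and continues into the next gene on the same strand, after which exons of both can be spliced into a single RNA. RPL36A encodes a protein of the large ribosomal subunit. The hnRNP H/F proteins bind runs of guanine in nascent RNA through RNA recognition motifs of a type called quasi-RRM, and they take part in the choice of splice sites and polyadenylation sites.

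In the annotation on GRCh37 (hg19), RPL36A-HNRNPH2 (ENSG00000257529) spans chrX:100645999-100667285 on the plus strand. RPL36A (ENSG00000241343) lies at chrX:100645812-100651143 and HNRNPH2 (ENSG00000126945) at chrX:100663210-100669121, both on the plus strand and with 12066 bases between them. The readthrough gene has 2 transcripts, of 562 and 572 bases. Both begin with the first 3 exons of RPL36A, and the 562-base transcript also holds exon 4. Both then end inside exon 2 of HNRNPH2 and skip its exon 1. Of the 695 exonic bases, 333 (47.9%) lie in exons of RPL36A, 362 (52.1%) lie in exons of HNRNPH2, and 0 lie in neither.

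**Figure D1:**
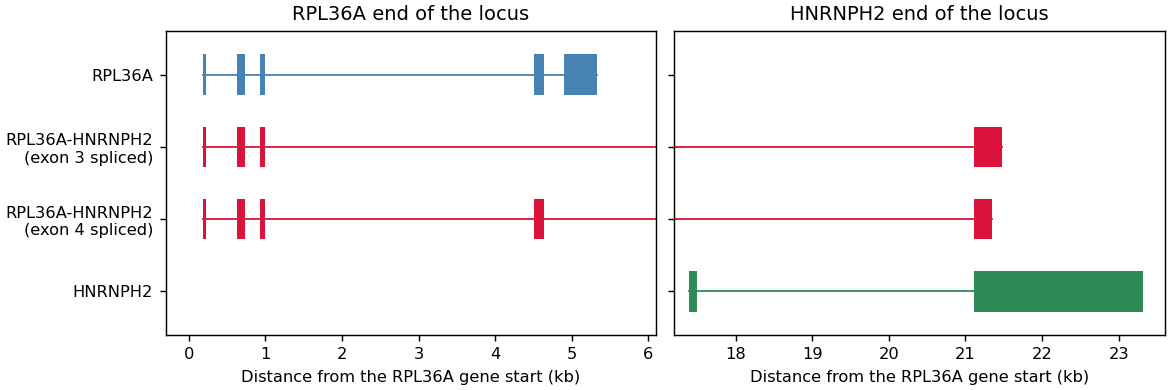
Exons (boxes) and introns (lines) of the 761-base RPL36A transcript, the 2 RPL36A-HNRNPH2 transcripts and HNRNPH2, by distance in kb from the start of RPL36A, with both panels on the same scale and the stretch between them left out. Every readthrough exon falls within an exon of RPL36A or HNRNPH2.

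The spliced junctions are shown because those marked readthrough occur in neither parent. Junctions of the parents stand beside them. Each line gives 15 bases of the upstream exon in lower case and 15 bases of the downstream exon in capitals, 5′ to 3′ on the plus strand of GRCh37.
RPL36A exon 3 to HNRNPH2 exon 2, readthrough: attttccggaaaaagCTACACCAAAATTGC
RPL36A exon 4 to HNRNPH2 exon 2, readthrough: gataagaagagaaagCTACACCAAAATTGC
RPL36A exon 3 to exon 4: attttccggaaaaagGCTAAAACTACAAAG
RPL36A exon 4 to exon 5: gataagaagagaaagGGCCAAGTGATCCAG
HNRNPH2 exon 1 to exon 2: ccggtatcgttagagCTACACCAAAATTGC
The readthrough junctions use the same donor ends as RPL36A and the same acceptor end as HNRNPH2, over introns of 20113 and 16478 bases. All 5 introns begin with GT and end with AG. Each readthrough junction and the HNRNPH2 junction occurred in 1 annotated transcript, whereas the RPL36A junctions occurred in 11 and 13 transcripts, pseudogenes of RPL36A among them. The junction of RPL36A exon 3 to exon 4 also occurs in the readthrough gene, in its 562-base transcript.

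Cut into windows of 50 bases, the readthrough transcripts gave 691 windows, and 599 of them (86.7%) also occurred in transcripts of another gene. HNRNPH2 held 315 of these, RPL36A held 284 and the pseudogene RPL36AP37 held 251. Only 92 windows were particular to the readthrough gene. Of the parents, 7.67% of RPL36A windows and 14.6% of HNRNPH2 windows occurred in another gene, against 4.95% for HNRNPH1 and 0% for HNRNPH3 and HNRNPF. How fragments in shared exons were assigned is not given in the sources used here, so the readthrough level and those of its parents are uncertain wherever reads could belong to either.

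RPL36A-HNRNPH2 was listed at 25.8, 20.0 and 31.0 FPKM in WT untreated libraries 1, 2 and 3. With GLUP, WT libraries 14, 15 and 16 were at 44.6, 37.9 and 24.7 FPKM. TEAD4KO untreated libraries 1, 2 and 3 were at 36.3, 40.9 and 46.6 FPKM. TEAD4KO libraries with GLUP were at 3.21, 1.04 and 0.492 FPKM. The 3 libraries with both the knockout label and GLUP lay below the other 9, which ranged from 20.0 to 46.6 FPKM.

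The differences between group means of log2(FPKM + 1) for the readthrough row were 0.45 for GLUP in WT and −4.17 for GLUP in TEAD4KO. For TEAD4KO against WT they were 0.68 without and −3.93 with GLUP. The comparisons share groups, and these values describe the pattern for which the row was chosen. Untreated, all TEAD4KO libraries lay above all WT libraries, while the WT groups overlapped. Over all rows, 18.3% lay apart upward in the former comparison, and 3.98% lay apart downward for GLUP in TEAD4KO, as the readthrough row did. With a pseudocount of 0.1 in place of 1, the difference for GLUP in TEAD4KO was −4.98.

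**Figure D2:**
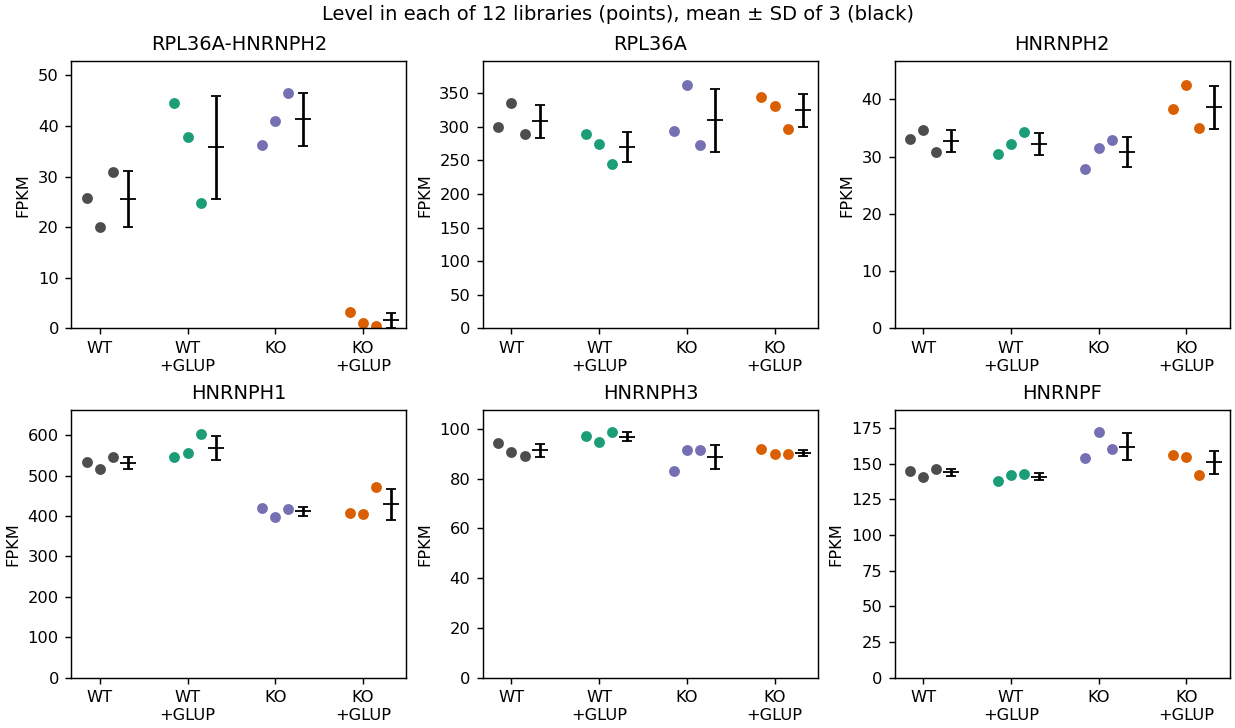
FPKM of the 6 genes in each of 12 libraries (points, 3 a group, KO for TEAD4KO), with the group mean ± SD of 3 in black and every axis starting at 0. RPL36A-HNRNPH2 was at 0.492 to 3.21 FPKM in TEAD4KO with GLUP, and HNRNPH1 was at 399 to 472 FPKM in TEAD4KO against 517 to 603 FPKM in WT.

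RPL36A, the upstream parent, was at 299, 335 and 289 FPKM in WT untreated libraries and at 289, 274 and 245 FPKM in WT with GLUP. It was at 293, 362 and 272 FPKM in TEAD4KO untreated libraries and at 344, 331 and 297 FPKM in TEAD4KO with GLUP. Only the 2 treated groups did not overlap, with the TEAD4KO libraries above the WT libraries (16.7% of all rows lay apart in that direction). The log2 difference was −0.19 ± 0.10 (SE) for GLUP in WT (limma, adjusted p = 0.999) and −0.00 ± 0.10 for TEAD4KO against WT untreated (adjusted p = 0.99). Beside the fall of the readthrough row it was 0.08 for GLUP in TEAD4KO and 0.27 for TEAD4KO against WT with GLUP (0.125 after quantile normalization), as a description, since both rows share exons. RPL36AL, the autosomal paralogue that encodes a nearly identical protein, was at 95.3 to 120 FPKM and did not pass in any of the 5 comparisons.

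HNRNPH2, the downstream parent, was at 33.1, 34.6 and 30.8 FPKM in WT untreated libraries and at 30.4, 32.2 and 34.3 FPKM in WT with GLUP. The untreated TEAD4KO libraries were at 27.8, 31.6 and 32.9 FPKM, and those with GLUP at 38.3, 42.5 and 35.0 FPKM. The 3 TEAD4KO libraries with GLUP were the highest of the 12. The tests gave −0.02 ± 0.08 for GLUP in WT (adjusted p = 0.999) and −0.09 ± 0.08 for TEAD4KO against WT untreated (adjusted p = 0.561). The described differences were 0.32 for GLUP in TEAD4KO and 0.25 for TEAD4KO against WT with GLUP. In those comparisons 2.85% and 16.7% of all rows lay apart between groups in the same direction. HNRNPH2 and the readthrough row had a Pearson r of −0.78 over the 12 libraries and −0.54 over the 9 outside TEAD4KO with GLUP, as a description of 2 rows that share exons and libraries.

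The locus as a whole was summed over RPL36A, HNRNPH2 and RPL36A-HNRNPH2. The sum was 366 ± 21.2 FPKM (SD, n = 3) in WT untreated, 337 ± 30.6 in WT with GLUP, 381 ± 46.3 in TEAD4KO untreated and 364 ± 28.5 in TEAD4KO with GLUP. All 4 ranges overlapped. Each row was also multiplied by its median annotated transcript length, as a rough stand-in for fragments. The lengths behind the FPKM are not known. On this scale the sums were 305 ± 18.6, 283 ± 17.3, 310 ± 33.5 and 317 ± 24.0 FPKM kb in the same order. The readthrough row held 0.148% to 0.831% of the FPKM sum in TEAD4KO with GLUP and 5.13% to 13.3% in the other 9 libraries. HNRNPH2 and the readthrough row together were at 58.4 ± 3.58, 68.0 ± 8.25, 72.0 ± 7.71 and 40.2 ± 4.20 FPKM, so the rise of HNRNPH2 was smaller than the fall of the readthrough row in FPKM. FPKM divides by length, and median transcript lengths were 2296 bases for HNRNPH2 and 567 for the readthrough row. In FPKM kb, HNRNPH2 was at 63.8, 72.5 and 75.5 in TEAD4KO untreated and at 87.9, 97.6 and 80.4 with GLUP. The readthrough row was at 20.6, 23.2 and 26.4, and with GLUP at 1.82, 0.591 and 0.279. RPL36A was at 205, 253 and 190, and with GLUP at 241, 232 and 208. Whether fragments moved between these rows was not tested.

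**Figure D3:**
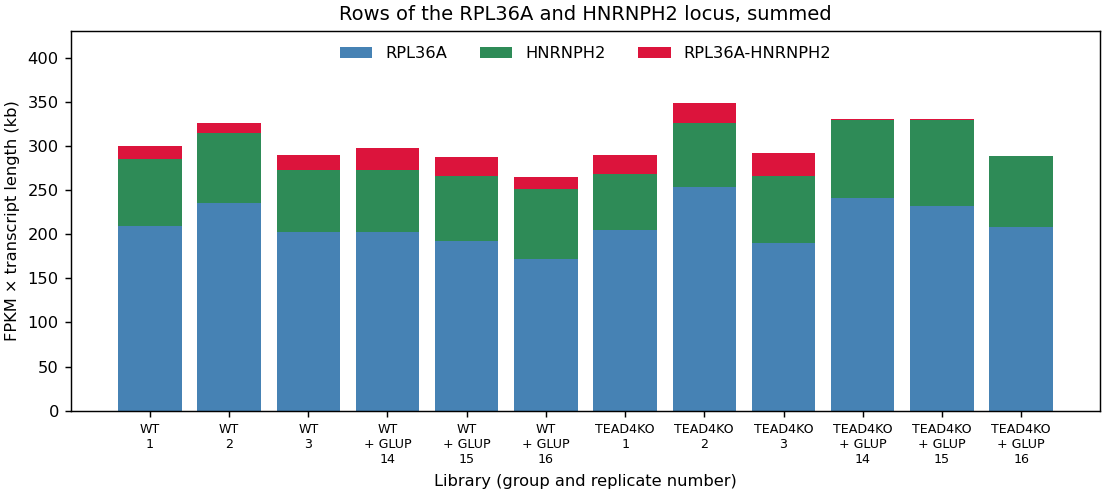
FPKM multiplied by median transcript length in kb, stacked over RPL36A, HNRNPH2 and RPL36A-HNRNPH2, for each of the 12 libraries. The readthrough segment is close to 0 in the 3 TEAD4KO libraries with GLUP, and the group means of the whole bars lie between 283 and 317.

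Genes around the locus were read as a comparison. GLA, the lysosomal alpha-galactosidase, lies on the minus strand inside the span of the readthrough gene. It was at 44.4 to 47.6 FPKM in the WT libraries and at 49.6 to 55.4 FPKM in TEAD4KO, with log2 differences of 0.20 ± 0.06 untreated (adjusted p = 0.0572) and 0.21 ± 0.06 with GLUP (adjusted p = 0.0452). All 6 TEAD4KO libraries lay above all 6 WT libraries for GLA, as did 7.06% of all rows, and 4.91% of all rows passed as higher with GLUP. The call of GLA with GLUP is near the threshold, and its alternatives are not reported here. GLUP moved GLA by −0.00 in WT and 0.01 in TEAD4KO, neither passing. TIMM8A, a chaperone of mitochondrial protein import, had group means of 13.3 to 14.6 FPKM and did not pass in any comparison. TAF7L, BTK and ARMCX4 did not exceed 0.215 FPKM in any library.

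Levels per length fell in a fixed order in all 4 groups for the 4 highest members. HNRNPH1 came first, then RPL36A, HNRNPF and HNRNPH3, and no ranges of these neighbours overlapped. HNRNPH2 and RPL36A-HNRNPH2 were the lowest pair. Their ranges overlapped in both WT groups, the readthrough row was above HNRNPH2 in TEAD4KO untreated, and it was below HNRNPH2 in TEAD4KO with GLUP.

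HNRNPH1 was the family member that passed the test between genotypes. This gene (ENSG00000169045, chr5:179041179-179061785, minus strand) encodes hnRNP H, a regulator of alternative splicing. It was at 533, 517 and 546 FPKM in WT untreated libraries and at 546, 557 and 603 FPKM in WT with GLUP. The untreated TEAD4KO libraries were at 419, 399 and 417 FPKM, and those with GLUP at 408, 406 and 472 FPKM. All 6 TEAD4KO libraries lay below all 6 WT libraries, as did 2.33% of all rows tested.

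HNRNPH1 was lower in TEAD4KO by a log2 difference of −0.37 ± 0.07 untreated (limma, adjusted p = 0.0092) and of −0.41 ± 0.07 with GLUP (adjusted p = 0.00464). Its fold of WT was 0.775 and 0.753. It was the only 1 of the 5 members tested that passed untreated and the only 1 of the 3 members tested that passed with GLUP. Over all rows 5.42% passed untreated and 5.84% with GLUP, and 0.499% and 0.935% passed in the lower direction. These shares depended on single libraries. The untreated share was 1.06% to 2.43% without WT untreated library 1, 2 or 3 or TEAD4KO untreated library 2, 8.63% without TEAD4KO with GLUP library 16 and 10.6% without TEAD4KO untreated library 1. The share with GLUP was 1.75% to 3.06% without WT with GLUP library 14, 15 or 16 or TEAD4KO with GLUP library 14 or 15, 9.82% without TEAD4KO untreated library 1 and 17.4% without TEAD4KO with GLUP library 16. In the lower direction, leaving out 1 library gave 0.0535% to 2.98% untreated and 0.0802% to 7.34% with GLUP, the highest without TEAD4KO untreated library 1 and TEAD4KO with GLUP library 16, respectively. Of the rows that passed, 90.8% were higher in TEAD4KO untreated and 84% with GLUP, against 59.2% and 63% after quantile normalization and 70.6% and 73% after median-ratio scaling, under each of which HNRNPH1 remained lower and past the threshold. Without WT untreated library 3 the adjusted p of the untreated comparison was 0.0601.

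HNRNPH1 did not pass for GLUP. The log2 difference was 0.10 ± 0.07 in WT (adjusted p = 0.999), where the treated libraries lay just above the untreated ones with both nearest values rounding to 546 FPKM (10.2% of all rows lay apart upward), and 0.05 ± 0.07 in TEAD4KO (adjusted p = 0.959). The interaction was −0.04 ± 0.10 (adjusted p = 1.0).

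HNRNPF (ENSG00000169813, chr10:43881065-43904634, minus strand), which encodes the F protein of the family, was at 145, 141 and 146 FPKM in WT untreated libraries and at 138, 142 and 143 FPKM in WT with GLUP. The untreated TEAD4KO libraries were at 154, 172 and 160 FPKM, and those with GLUP at 156, 155 and 142 FPKM. The untreated TEAD4KO libraries all lay above the untreated WT libraries (18.3% of all rows did so), and the treated groups overlapped. The log2 differences of 0.17 ± 0.06 untreated (adjusted p = 0.103) and 0.10 ± 0.06 with GLUP (adjusted p = 0.319) did not pass, and quantile normalization turned the latter to −0.04. Without TEAD4KO untreated library 1 the first passed, with an adjusted p of 0.043. GLUP gave −0.03 in WT (adjusted p = 0.999) and −0.10 in TEAD4KO (adjusted p = 0.835).

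HNRNPH3 (ENSG00000096746, chr10:70090931-70102950, plus strand) encodes a shorter family protein. Its level ranged from 83.0 to 98.6 FPKM over the 12 libraries. It was at 94.2, 90.8 and 89.1 FPKM in WT untreated, 97.2, 94.9 and 98.6 FPKM in WT with GLUP, 83.0, 91.4 and 91.5 FPKM in TEAD4KO untreated and 91.9, 89.8 and 89.8 FPKM in TEAD4KO with GLUP. The treated TEAD4KO libraries lay below the treated WT libraries, as did 12.9% of all rows. The log2 differences between genotypes were −0.04 ± 0.05 untreated (adjusted p = 0.674) and −0.10 ± 0.05 with GLUP (adjusted p = 0.288). After quantile normalization the second passed, with an adjusted p of 0.0316.

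Summed over HNRNPH1, HNRNPH2, HNRNPH3 and HNRNPF, the family was at 800 ± 14.7 FPKM in WT untreated, 839 ± 35.3 in WT with GLUP, 694 ± 9.23 in TEAD4KO untreated and 708 ± 26.0 in TEAD4KO with GLUP. The lowest WT library (783 FPKM) lay above the highest TEAD4KO library (739 FPKM). Of the genes summed, only HNRNPH1 had all 6 TEAD4KO libraries below all 6 WT libraries, as had 2.33% of all rows. HNRNPH2, HNRNPH3 and HNRNPF overlapped between genotypes. HNRNPF had higher group means in TEAD4KO (162 and 151 FPKM) than in WT (144 and 141 FPKM). HNRNPH1 made up 66.5% and 67.8% of the sum in the WT groups and 59.4% and 60.4% in the TEAD4KO groups.

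None of the members tested passed for GLUP, 0 of 5 in WT and 0 of 3 in TEAD4KO, and 0 of 3 passed for the interaction. At an unadjusted p under 0.05 the counts were also 0 in each, beside 3.43%, 6.38% and 2.53% of all rows. Over all rows 0.00891% passed for GLUP in WT, 0.0445% for GLUP in TEAD4KO and 0.00891% for the interaction. These shares stand for 1, 5 and 1 of 11225 rows, in that order. The readthrough row, chosen for its values, is among the 11225.

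A list of 23 other hnRNP genes and related RNA-binding proteins was read beside the family, and all 23 had a mean of at least 1 FPKM. In TEAD4KO against WT untreated, 2 of 23 passed, both higher, and with GLUP 2 of 23 passed, 1 higher and 1 lower. Over all rows 4.92% passed as higher untreated and 4.91% with GLUP. The median log2 difference of the list was 0.03 untreated and 0.03 with GLUP, beside 0.02 and −0.00 over all rows. With the replicate number as a block, 4 of 23 passed with GLUP, while the share over all rows rose from 5.84% to 9.48%. The blocked adjusted p of HNRNPH1 was 0.00255 there.

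RALY, an hnRNP C-like protein, was at 50.8 to 54.8 FPKM in the 6 WT libraries and at 61.8 to 70.4 FPKM in the 6 TEAD4KO libraries. It was higher by 0.30 ± 0.06 untreated (adjusted p = 0.0129) and 0.34 ± 0.06 with GLUP (adjusted p = 0.00526). The untreated call was lost without TEAD4KO untreated library 2 or WT untreated library 3, with adjusted p up to 0.0831. HNRNPA0, which binds AU-rich elements, was at 56.6 to 60.6 FPKM in WT and 64.6 to 75.0 FPKM in TEAD4KO. It was higher by 0.23 ± 0.06 untreated (adjusted p = 0.0329), a call lost in 9 of 22 alternatives, both scalings among them, and was at 0.21 ± 0.06 with GLUP (adjusted p = 0.0535), where it passed with the replicate number as a block (adjusted p = 0.045). All 6 TEAD4KO libraries lay above all 6 WT libraries for RALY and HNRNPA0, as did 7.06% of all rows.

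HNRNPD, known as AUF1, a regulator of mRNA decay, was at 225 to 236 FPKM in WT with GLUP and at 191 to 197 FPKM in TEAD4KO with GLUP. It was lower by −0.27 ± 0.07 there (adjusted p = 0.0476), a call lost in 11 of 22 alternatives. Untreated, its difference was −0.12 ± 0.07 (adjusted p = 0.35). None of the 23 passed in limma for GLUP in either genotype or for the interaction, and at an unadjusted p under 0.05 the counts were 1 for GLUP in WT, 0 for GLUP in TEAD4KO and 0 for the interaction, beside 3.43%, 6.38% and 2.53% of all rows. The unadjusted counts for TEAD4KO against WT were 4 of 23 untreated and 7 of 23 with GLUP, beside 21.7% and 23.9% of all rows. The smallest p of the list were those of HNRNPD for GLUP in WT (0.17 ± 0.07, adjusted p = 0.999) and for the interaction (−0.14 ± 0.10, adjusted p = 1.0), and of HNRNPC, a protein of the core hnRNP particle, for GLUP in TEAD4KO (−0.08 ± 0.08, adjusted p = 0.942).

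**Figure D4:**
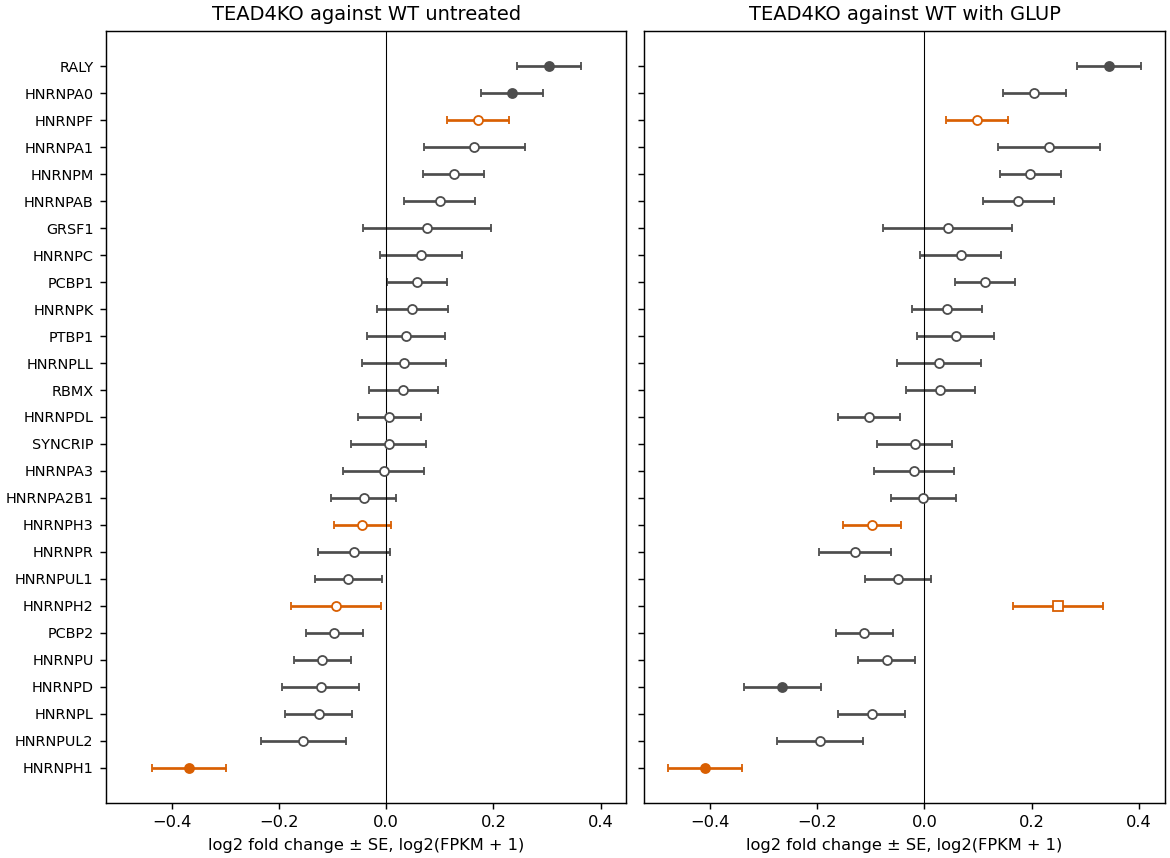
Log2 fold change of TEAD4KO against WT ± SE on log2(FPKM + 1), untreated and with GLUP, for 4 hnRNP H/F genes (orange) and 23 other hnRNP genes (grey). Filled points passed at an adjusted p under 0.05, the open square is described without a test, and HNRNPH1 lies farthest to the left in both panels, at −0.37 and −0.41.

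Rows whose symbol joins 2 other gene symbols, as RPL36A-HNRNPH2 does, were then compared with the rest of the table. There were 98 such readthrough rows, of which 32 had a mean of at least 1 FPKM. The range of log2(FPKM + 1) between the highest and the lowest library had a median of 1.20 over the 32 and of 0.46 over the other rows. It exceeded 1 in 19 of the 32 (59.4%) and in 4.12% of the others. The readthrough rows and the others were not matched for level, and the part of level in these contrasts was not tested. RPL36A-HNRNPH2 had the largest range of all 11225 rows, 5.00, and 3 of the 10 largest ranges belonged to readthrough rows. It was chosen for its values, so its rank restates that choice, and it is counted among the 32 and the 3. Spread within groups was larger too, with a median SD of 0.40 on the log2 scale over readthrough rows and 0.12 over the others, against 0.47 for RPL36A-HNRNPH2.

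The readthrough rows with the next largest ranges varied widely within groups. PPAN-P2RY11, which joins a ribosome biogenesis gene to a purinergic receptor gene, was at 6.25, 28.9 and 0 FPKM in TEAD4KO untreated and at 25.5, 19.0 and 1.02 FPKM in TEAD4KO with GLUP, and it did not exceed 0.82 FPKM in WT. BLOC1S5-TXNDC5 was at 0, 0 and 10.2 FPKM in WT untreated, 7.13, 0 and 0 FPKM in WT with GLUP, 0.855, 1.42 and 0 FPKM in TEAD4KO untreated and 0.917, 0 and 18.7 FPKM in TEAD4KO with GLUP. Libraries of the same group thus stood between 0 and 28.9 FPKM for the former and between 0 and 18.7 FPKM for the latter.

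**Figure D5:**
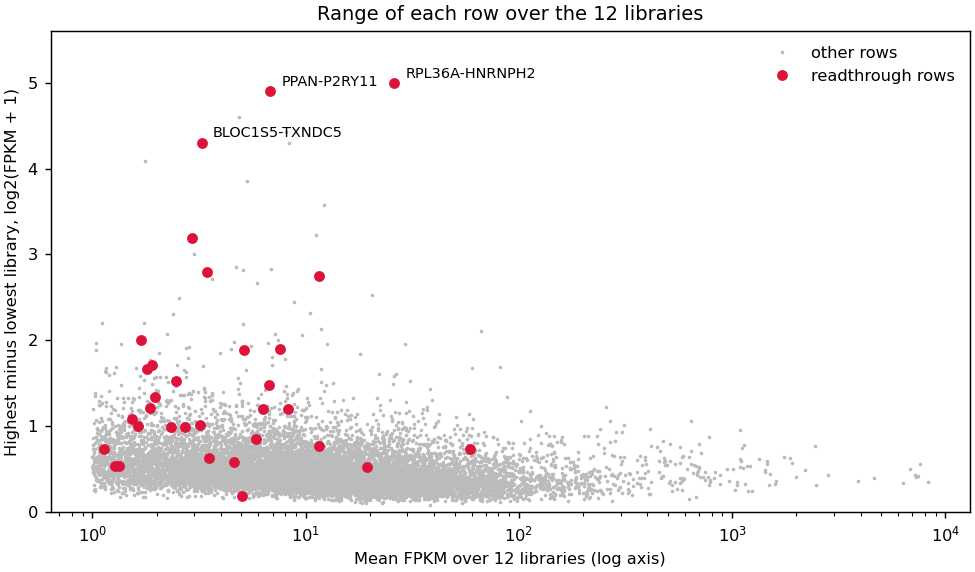
Highest minus lowest library in log2(FPKM + 1) for each of 11225 rows, against the mean FPKM over 12 libraries on a log axis, with the 32 readthrough rows in red. RPL36A-HNRNPH2 has the largest range, 5.00, at a mean of 26.1 FPKM.

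Among the rows most like RPL36A-HNRNPH2 over the 12 libraries, by Pearson r on log2(FPKM + 1), were PFKM (the muscle phosphofructokinase of glycolysis, 0.84) and RSL1D1 (a nucleolar protein, 0.84). Over the 9 libraries outside TEAD4KO with GLUP their r was 0.0046 and −0.14. The most opposed rows were SNAPC3 (a subunit of the complex for small nuclear RNA transcription, −0.86), NFKBIE (an inhibitor of NF-κB, −0.84) and DYNC1LI1 (a dynein light intermediate chain, −0.84), with r of 0.11, 0.40 and −0.47 over those 9. DYNC1LI1 alone of these opposed rows stayed negative. All these rows were picked for extreme r over 12 libraries that include those for which the readthrough row was chosen. The likeness of PFKM and RSL1D1, and the opposition of SNAPC3 and NFKBIE, over 12 libraries therefore rested on the 3 libraries of TEAD4KO with GLUP. PFKM was at 51.8 to 54.3 FPKM there and at 55.0 to 57.8 FPKM elsewhere, a far smaller step than that of the readthrough row.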

How the data were processed

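The authors deposited FPKM values, 1 column for each of 12 libraries and 1 row per Ensembl gene, with replicates not pooled. The submitters' processing notes name hg19, HISAT2, Cufflinks and RSEM, without versions or roles, and the strand setting and annotation release are not given in the sources used here. Library depth could not be recovered from the values, so precision comes from the spread between libraries only.

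Values were analysed as log2(FPKM + 1), and fold changes on this scale understate changes of low genes. The 11225 rows averaging 1 FPKM or more entered a 4-group limma 3.58.1 model in R 4.3.3 (lmFit, eBayes with intensity trend). Two-sided p-values were adjusted by Benjamini-Hochberg over all rows of each of 5 comparisons. The model was run on simulated data with independent noise per library and row, which cannot show the effect of deviations shared across rows. Passed means an adjusted p under 0.05, and the background shares are percentages of these rows. The readthrough row entered the model and the adjustment with all other rows, but no test of it is reported. Tests of RPL36A and HNRNPH2 are reported only for GLUP in WT and TEAD4KO against WT untreated. Coordinates, transcripts, lengths and junction sequences came from GENCODE release 44 on GRCh37. Protein sequences were not used here.

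The members, lists and tests were chosen with earlier results of these data known. Named genes were the members, RPL36AL, TEAD4, genes within 100 kb, up to 4 hnRNP genes with the smallest adjusted p that passed per comparison (otherwise the 1 with the smallest p), the 3 readthrough rows of largest range, and the 3 rows most and 3 least correlated with RPL36A-HNRNPH2, of which 1 is not reported here. HNRNPM was named after its values were seen.

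Alternatives were a pseudocount of 0.1, no filter, a mean of at least 5 FPKM, quantile normalization, scaling by median ratio, array weights, a fit with no eBayes trend, a GC and length correction (splines with 5 degrees of freedom), a fold over 2, a model of the compared pair of groups alone, the replicate block, and each library left out. For pairing, deviations of same-numbered libraries from their group means were correlated between genotypes. The r were 0.106, 0.152 and 0.336 for treated numbers 14, 15 and 16, all over 0.1, and −0.0569, 0.203 and −0.0149 for untreated numbers 1, 2 and 3. Treated libraries were read as possibly paired by number, from the data alone, but different-numbered treated pairs also reached 0.134, so pairing stays unsettled. The main model paired no libraries. The replicate block, listed among the alternatives, entered the numbers of treated and untreated libraries alike.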

Additional observations from a re-analysis of the deposited data

Results flagged for a closer look

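RPL36A-HNRNPH2 moved in opposite directions between genotypes without and with GLUP. Untreated, every TEAD4KO library lay above every WT library, with a difference of 0.68 on log2(FPKM + 1). With GLUP, every TEAD4KO library lay below every WT library, with a difference of −3.93. Over all rows, 18.3% lay apart upward untreated and 12.9% lay apart downward with GLUP. No test of the difference between the contrasts is reported, because the row was chosen for these values. The part of read assignment between exons shared with RPL36A and HNRNPH2 in this pattern was not tested.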

How the results depend on the processing

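HNRNPH1 remained lower in TEAD4KO in all 22 alternatives of both comparisons, with log2 differences from −0.54 to −0.35 untreated and −0.60 to −0.37 with GLUP. A required fold over 2 left 0 members in both, and quantile normalization gave 2 members with GLUP. Leaving out 1 library in turn gave 0 to 2 members untreated. With a pseudocount of 0.1 the readthrough difference was −4.98 for GLUP in TEAD4KO and −4.73 for TEAD4KO against WT with GLUP. Of the 23 hnRNP genes, 1 passed untreated after median-ratio scaling or without the eBayes trend (4.04% and 4.16% of all rows), 4 after quantile normalization (5.37%) and 0 with a fold over 2. With GLUP, 6 passed with array weights (22.2% of all rows) or quantile normalization (7.21%), 4 at a mean of at least 5 FPKM (9.12%), 1 without a filter (2.47%) or without the trend (4.61%), and 0 with a fold over 2. Leaving out 1 library gave 0 to 2 untreated and 1 to 4 with GLUP. The cause of these moves was not tested.

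With the replicate number as a block, HNRNPH1 kept −0.37 untreated (adjusted p = 0.00513) and −0.41 with GLUP (adjusted p = 0.00255), and 4 of the 23 hnRNP genes passed with GLUP (9.48% of all rows), also with the GC and length correction added (7.27%), the additions to the main model in the uncorrected blocked fit being HNRNPA0 and HNRNPM. The block changed no call of a member.

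Small differences that had not passed changed sign. HNRNPF turned to 0.014 for GLUP in WT and to −0.0425 for TEAD4KO against WT with GLUP after quantile normalization, and RPL36A turned to 0.0192 untreated after the GC and length correction, with or without the replicate block. With 1 library left out, the ranges were −0.0678 to 0.0174 for HNRNPH2 for GLUP in WT, −0.0176 to 0.0911 for HNRNPH1 and −0.0149 to 0.0547 for HNRNPH3 for GLUP in TEAD4KO, −0.122 to 0.0836 for RPL36A and −0.0678 to 0.0018 for HNRNPH3 for TEAD4KO against WT untreated, and −0.113 to 0.0011 for HNRNPH1 for the interaction. RPL36A moved to 0.125 for TEAD4KO against WT with GLUP after quantile normalization. Of the values recomputed, 945 kept their call or size, 37 lost a call, 2 gained one, 13 changed sign and 35 moved beyond the set limit. Depth is unknown and limits what low values such as 0.492 FPKM can show.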
